A study of Mus musculus with 23 samples.

Results

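The Dlk1-Dio3 domain of mouse chromosome 12 carries 3 long noncoding RNA genes, Meg3, Rian and Mirg, and many microRNAs, and these RNAs were followed through hippocampal synaptosomes and through the synaptic compartment of cultured hippocampal neurons. The members were given as a list of names, namely the 3 genes and 37 mature microRNAs. All 3 genes were among the 48709 gene identifiers of the total RNA tables, and each of the 37 microRNAs had 1 entry among the 1978 microRNA names of the small RNA tables. Synaptosomes, the resealed nerve terminals obtained when brain is homogenized, came from the hippocampus of unstimulated C57B/6J mice aged 3 months, as 3 pools of animals, and the RNA of each pool gave a total and a small RNA library. Microfluidic chambers held hippocampal primary cultures of CD1 embryos (E17) kept for 14 days in vitro, and the channel in which their neurites form synapses was cut out for RNA. There were 8 control and 3 KCl chamber libraries of total RNA, each pooled from a pair of chamber samples, the KCl samples treated with 50 mM KCl for 2 h, and 6 control chamber libraries of small RNA. Synaptosomes and chambers thus differed in strain, age, preparation and library kit at once, and the parts of these in any difference between them cannot be told apart. Since the samples are bulk, fewer cells of a type and less RNA per cell cannot be told apart either.

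Meg3, Rian and Mirg lie in a row on the plus strand and are transcribed from the maternally inherited chromosome, where the microRNAs are cut out of the same long transcripts. The paternal chromosome instead expresses the protein-coding genes Dlk1, a Notch-like membrane protein, Rtl1, a gene derived from a retrotransposon, and Dio3, an enzyme that inactivates thyroid hormone. Meg3 is known as a mostly nuclear RNA. Some of the microRNAs act at synapses: in rat hippocampal neurons miR-134 limits the growth of dendritic spines, and miR-127-3p and its neighbours are fully complementary to Rtl1, on whose opposite strand they lie.

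In the mm10 assembly Meg3 spans chr12:109541001-109571726, Rian chr12:109603940-109661716 and Mirg chr12:109729764-109749460 (GENCODE vM21). Of the 37 microRNA members, 6 lay opposite Rtl1, 1 lay within Rian, 16 lay between Rian and Mirg and 14 lay within Mirg. RefSeq (GRCm38.p6) gave a mature sequence for 34 of the 37 names, and these 34 had 34 different seeds, the bases 2 to 8 that pair with a target. The sequences below are the most abundant microRNAs, both arms of Mir127, the arms that changed order between pools where RefSeq holds them, and those whose level differed most between synaptosomes and chambers, with the seed in capitals, 5′ to 3′.
miR-127-3p: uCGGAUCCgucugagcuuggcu
miR-127-5p: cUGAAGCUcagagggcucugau
miR-434-3p: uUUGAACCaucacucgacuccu
miR-434-5p: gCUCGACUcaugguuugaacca
miR-370-3p: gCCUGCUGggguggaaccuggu
miR-379-5p: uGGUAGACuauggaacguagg
miR-411-5p: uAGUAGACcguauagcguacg
miR-381-3p: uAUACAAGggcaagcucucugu
miR-300-3p: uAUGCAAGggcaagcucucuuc
miR-541-5p: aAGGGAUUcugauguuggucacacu
miR-382-5p: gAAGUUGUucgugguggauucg
miR-369-3p: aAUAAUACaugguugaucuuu
miR-369-5p: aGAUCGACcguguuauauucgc
miR-485-3p: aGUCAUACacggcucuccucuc
miR-323-3p: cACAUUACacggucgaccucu
miR-329-3p: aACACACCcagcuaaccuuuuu
miR-667-3p: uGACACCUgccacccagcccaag
The mature miR-127-3p lies at chr12:109592888-109592909 and miR-381-3p at chr12:109726870-109726891, both on the plus strand. Seeds that differed at 1 base joined miR-379-5p with miR-411-5p (66.7% of bases equal along the whole microRNA), miR-381-3p with miR-300-3p (86.4%) and miR-376a-3p with miR-376b-3p (85.7%). Whether the counting divided reads between the members of such pairs was not tested.

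In total RNA, synaptosome libraries held 14714196 to 16667516 counts, control chambers 722529 to 48281227 and KCl chambers 2632490 to 80883504. The 10 most abundant genes took 90.1% to 91.1% of a synaptosome library but 4.64% to 25.2% of a control chamber library. Levels are therefore given in CPM (counts scaled to the total of the library) and also as ratios within a library, which no scaling can move. Markers of neurons and synapses were present in every group, with summed levels of 1383 to 1995 CPM in synaptosomes, 1322 to 7985 CPM in control chambers and 3440 to 8642 CPM in KCl chambers. Markers of astrocytes were present as well, at 2044 to 2884 CPM, 833 to 8321 CPM and 1516 to 3045 CPM in the same order. In all, 2 control chambers stood apart: sc3, the deepest, had the lowest sum over 1880 receptor genes of smell and taste, at 65.9 CPM, and Ctrl4, the shallowest, had the highest, at 12977 CPM. This sum was 1.14 to 1.90 CPM in synaptosomes and 660 to 5064 CPM in KCl chambers, and its part in the results was not tested.

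Rian, the host of miR-370 and of many snoRNAs, was the most abundant of the 3 long noncoding RNAs in synaptosomes. Its level was 11.8, 12.8 and 13.4 CPM in pools 1, 2 and 3, on 173, 213 and 220 counts. Meg3 had 4.62, 1.86 and 4.80 CPM, on 68, 31 and 79 counts. Mirg, the host of the distal microRNA group, had 0.136, 0.360 and 0.304 CPM, on 2, 6 and 5 counts. The order of Rian, Meg3 and Mirg was the same in every pool and did not depend on length, since per kb of exon the means were 0.693 ± 0.045, 0.208 ± 0.091 and 0.0366 ± 0.016 CPM (SD, n = 3). The pools differed little for Rian, and pool 2 was the low one for Meg3.

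In control chambers the order was another one, with Meg3 first. Meg3 ranged from 603 CPM in Ctrl4 to 5860 CPM, with a median of 2376 CPM over the 8 libraries. Rian ranged from 18.4 CPM in sc3 to 616 CPM, with a median of 340 CPM. Mirg ranged from 5.92 CPM in sc3 to 61.0 CPM, with a median of 44.6 CPM. Per kb of exon, Meg3 (160 ± 107 CPM) stood above Rian (19.1 ± 10.7 CPM) and Rian above Mirg (5.55 ± 2.43 CPM; SD, n = 8). All 3 genes were lower in every synaptosome pool than in every control chamber, with mean CPM 768-fold, 27.6-fold and 152-fold higher in the chambers for Meg3, Rian and Mirg. A gap of this kind was common, since 35.9% of the 29926 genes tested had every pool below every control chamber and 0.150% had every pool above.

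**Figure D1:**
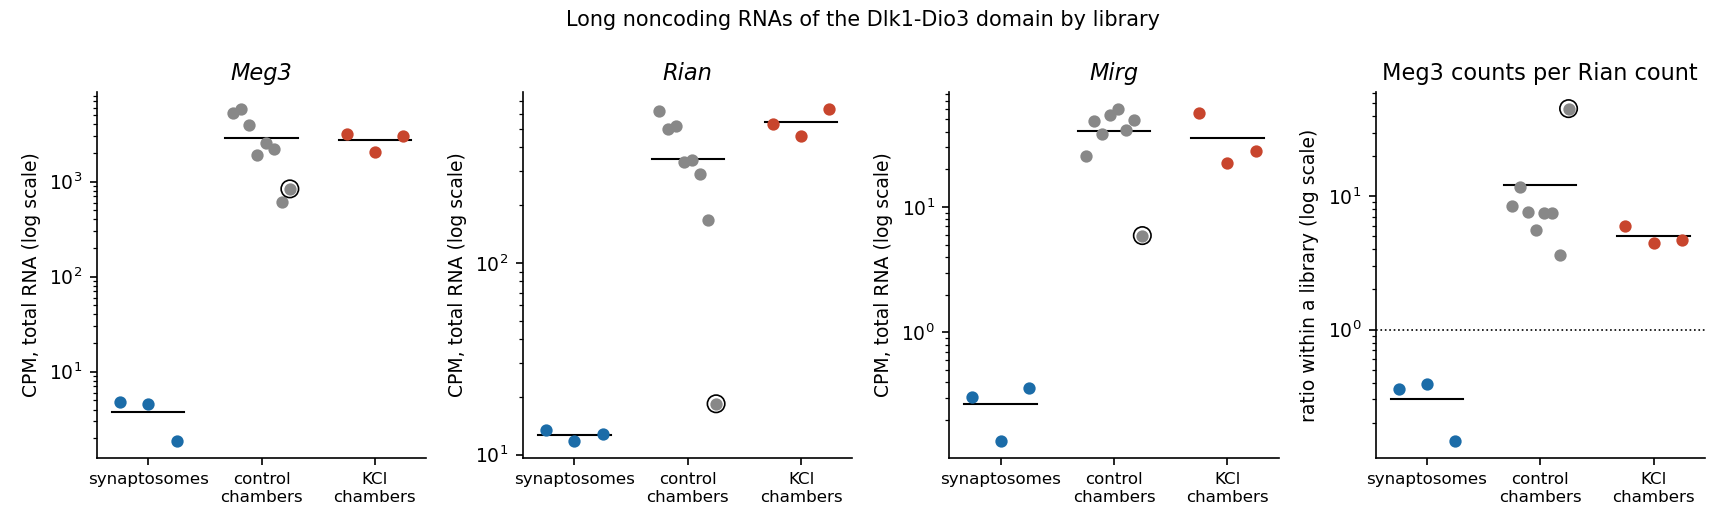
CPM of Meg3, Rian and Mirg in each total RNA library and counts of Meg3 per count of Rian in the same library, all on log axes, with a bar at the group mean and a ring around control chamber sc3. Synaptosomes had fewer Meg3 than Rian counts in each of the 3 pools, while each of the 11 chamber libraries had more.

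The ratio of Meg3 to Rian counts turned over between the preparations. It was 0.393, 0.146 and 0.359 in synaptosome pools 1, 2 and 3 and 3.60 to 45.5 in the 8 control chambers, with a median of 7.57. The groups did not overlap, and the highest control ratio was that of sc3, without which the controls reached 11.7. On the log2 scale the difference was −5.02, or 32.5-fold (exact two-sided permutation test, n = 3 and 8, p = 0.0121, the smallest this design allows, and 0.0242 after Benjamini-Hochberg adjustment over 4 such ratios). Without sc3 it was 25.7-fold. In the lncRNA tables the log2 difference was −4.33, and without pool 2 the fold there was 14.8. Mirg also fell against Rian: there were 86.5, 35.5 and 44.0 Rian counts per Mirg count in pools 1, 2 and 3 and 3.11 to 24.3 in the controls, a 6.95-fold difference with the same exact permutation p of 0.0121 and 0.0242. The ratios were chosen after the values had been seen, so these p-values describe the libraries and are not independent support.

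edgeR with TMM scaling called Meg3 and Mirg lower in synaptosomes and did not call Rian. The quasi-likelihood test gave Meg3 a log2 difference of −5.84 (SE 1.16, adjusted p = 0.00703), Mirg −3.25 (SE 0.77, adjusted p = 0.0194) and Rian −0.94 (SE 0.75, adjusted p = 0.307). Over all genes tested 4.44% were called lower and 2.27% higher, and the median log2 difference was −3.21, so Mirg lay at the median, Meg3 below it and Rian above it. TMM set synaptosomes 15.1-fold higher against chambers than library totals do. With library totals in its place, Meg3, Mirg and Rian stood at −9.60, −7.19 and −4.80, all called, beside a median of −6.92. In that setting 27907 of the 29926 genes tested were called lower and 33 higher. DESeq2 also called Meg3 (−5.85) and Mirg (−3.38) and not Rian, beside 26.8% of genes lower and 5.80% higher. Without control sc3 the edgeR calls were the same for these 3 genes, beside 24.3% lower and 9.70% higher. Leaving out any 1 synaptosome pool ended the calls of Meg3 (log2 difference −5.36 to −4.84, adjusted p 0.0821 to 0.0968) and Mirg (−2.79 to −2.14, adjusted p 0.169 to 0.264) and took Rian to between −0.27 and −0.14. Leaving out control C9 ended that of Mirg (0.0505). In the tables the authors made for lncRNAs the log2 difference of Rian had the opposite sign, 0.43. Counts of Mirg depended on the table, with 78 in the total RNA table and 403 in the lncRNA table for control chamber Ctrl3.

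Noncoding RNAs known for their nuclear place had lower CPM in synaptosomes, as most genes did. With library totals edgeR called 27907 of the 29926 genes tested lower and 33 higher, with a median log2 difference of −6.92. The list of 6 (Malat1, Neat1, Miat, Snhg11, Kcnq1ot1 and Snhg14) summed to 33.6 to 41.4 CPM in synaptosomes, 3735 to 37788 CPM in control chambers and 11435 to 18807 CPM in KCl chambers. Malat1 made up most of the sum in the chambers, with 16931 ± 12573 CPM in controls (SD, n = 8) and 18.7 ± 3.74 CPM in synaptosomes (SD, n = 3). Snhg14 differed less, with 166 ± 77.4 CPM and 13.6 ± 0.955 CPM. The part of these RNAs in the Meg3 result was not tested. Of 14 further gene models of the domain that were tested, 4 were called lower in synaptosomes with TMM and 0 higher, beside the same 4.44% and 2.27% of all genes. A gene could pass the count filter through the control chambers alone, and so could Mirg. Models with few synaptosome counts could then hardly be called higher, so these counts of calls are not independent support. DESeq2 called 5 of the 14 lower, beside 26.8% of all genes. edgeR without sc3 called 5 of the 10 then tested lower, beside 24.3%. With library totals 13 of the 14 were called lower, beside 27907 of the 29926 genes. The 4 were Rtl1, the antisense partner of the miR-127 group (4, 0 and 0 counts in pools 1, 2 and 3 and 1138 counts over the controls, log2 difference −5.31, adjusted p = 0.0131 by edgeR), the lincRNA models Gm26945 and B830012L14Rik, and Gm37899. Dlk1 (−1.26, adjusted p = 0.304) and Dio3 (−1.03, adjusted p = 0.673), which bound the domain, did not pass the same edgeR test. The models of 67 microRNA hairpins together held 5 counts in synaptosomal total RNA and 761 in control chambers, and 23 snoRNA models held 0 and 465.

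KCl, which depolarizes neurons, was compared with control within the chambers. Meg3 had 3148, 2045 and 3014 CPM in the KCl libraries KCL1, KCL1a and KCL4, all within the range of the controls. Rian had 529, 457 and 637 CPM, the last of these above every control. Mirg had 56.3, 22.4 and 27.9 CPM, all within the range of the controls. The KCl mean was 0.947, 1.55 and 0.879 times the control mean for Meg3, Rian and Mirg. Against only the 3 controls whose titles hold letters, as all KCl titles do, it was 2.26, 3.41 and 1.1 times. Of these 3, sc3 and Ctrl4 had the lowest Meg3 (838 and 603 CPM) and Rian (18.4 and 167 CPM) of all controls.

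With edgeR and a term for the kind of title, 0 of the 3 long noncoding RNAs were called, beside 0.00354% of all genes called higher and 0.00% lower (1 gene in all). Rian had a log2 difference of 2.84 (SE 0.85, unadjusted p = 0.00287, adjusted p = 0.543), Meg3 1.90 (SE 1.08, adjusted p = 0.870) and Mirg a 2.15-fold higher value (adjusted p = 0.926). DESeq2 called Rian alone of the 3 (log2 difference 2.34, adjusted p = 0.00538), and it called 1.44% of all genes higher and 0.0319% lower. Without the term for the kind of title, edgeR gave Rian 1.18. In edgeR without control sc3 the value of Rian was 2.39 with an adjusted p of 0.0728, and 0 of the 3 were called beside 3.61% of genes higher and 0.303% lower. In the lncRNA table the signs of Meg3 (−0.91) and Mirg (−0.22) turned. The ratio of Meg3 to Rian was 5.95, 4.47 and 4.73 in KCL1, KCL1a and KCL4, inside the range of the controls, and differed from them by −0.83 on the log2 scale, or 1.78-fold (exact two-sided permutation test, n = 3 and 8, p = 0.133, adjusted p = 0.133). Without Ctrl4 the same ratio differed by −1.01 with an exact permutation p of 0.0333. With any other library left out this p was 0.117 to 0.356, and the groups overlapped in every case. In the lncRNA table the exact permutation p of the ratio was 0.594. The Mirg to Rian ratio under KCl differed by −1.15 on the log2 scale, or 2.21-fold, and the groups overlapped (exact two-sided permutation test, p = 0.121, adjusted p = 0.133). With each library left out this exact permutation p ran from 0.05 without C1 to 0.311 without KCL1a. For the same ratio the lncRNA table gave an exact permutation p of 0.0727.

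The microRNAs of the domain were a sizeable part of the synaptosomal small RNA. They took 5.37%, 11.3% and 6.79% of all microRNA counts in pools 1, 2 and 3 (7.82 ± 3.10%, SD, n = 3), of libraries with 6721076, 13906790 and 20546179 microRNA counts. miR-127-3p alone held 55.0% of the members' counts on average. It had 25667, 70398 and 37369 CPM and had rank 3 of the 1978 names by mean. Pool 2 was the high one, and even in pool 1 it stood far above every other member in any pool. The next member, miR-381-3p, had a mean 10.3-fold lower, with 2652, 7005 and 3334 CPM.

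All 37 members had counts in synaptosomes, where 52.5% of all names did. A mean of 1000 CPM, the cutoff the study used, was reached by 11 of the 37, beside 3.49% of all 1978 names. The 11 were miR-127-3p, miR-381-3p, miR-434-3p, miR-370-3p, miR-379-5p, miR-434-5p, miR-541-5p, miR-382-5p, miR-411-5p, miR-300-3p and miR-409-3p. Requiring the cutoff in every pool left 7 (2.48% of all names). A further 18 members had means of 100 to 1000 CPM, among them miR-134-5p, the regulator of spine size, with 187, 428 and 209 CPM. Another 6 had means of 10 to 100 CPM, and miR-494-3p (6.80 CPM) and miR-377-3p (3.30 CPM) were lower still. The order of the members was resolved only in part, since the 3 pools of neighbours in that order overlapped for 34 of 36 pairs. The exceptions were miR-127-3p against miR-381-3p and miR-154-5p against miR-758-3p.

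**Figure D2:**
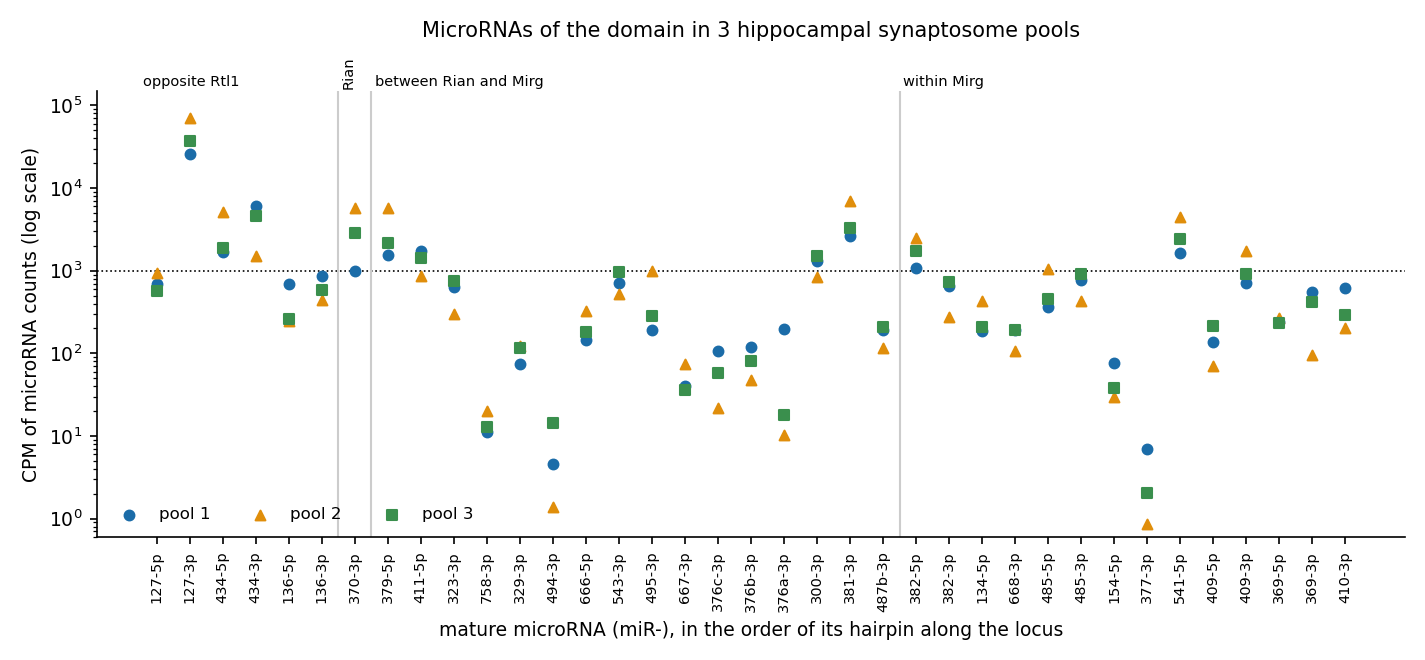
CPM of each microRNA in synaptosome pools 1, 2 and 3 (log axis), in the order of the hairpins along the locus, with the dotted line at 1000 CPM. The group opposite Rtl1 holds miR-127-3p at 25667 to 70398 CPM, while miR-377-3p within Mirg lies lowest.

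By stretch of the locus, the 6 members opposite Rtl1, from the hairpins Mir127, Mir434 and Mir136, took 5.32 ± 2.25% of microRNA counts, and 0.872 ± 0.119% without miR-127-3p. The 16 members between Rian and Mirg took 1.26 ± 0.39% and the 14 members within Mirg 0.921 ± 0.226% (SD, n = 3). No test was made between stretches. miR-370-3p, the single member within Rian, had 999, 5667 and 2893 CPM. Within each stretch levels differed widely, from 6.80 CPM for miR-494-3p to 4330 CPM for miR-381-3p between Rian and Mirg, and from 3.30 CPM for miR-377-3p to 2861 CPM for miR-541-5p within Mirg. The tables also held 79 other mature names of the domain, which took 0.619 ± 0.092% of counts. The highest was miR-433-3p with a mean of 2598 CPM, followed by miR-770-3p, which lies in Meg3, with 1271 CPM.

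Pool 2 differed from the others for part of these microRNAs. Of 35 members with at least 10 CPM in every pool, 10 were over 2-fold higher in pool 2 than in pools 1 and 3 (geometric mean) and 9 were over 2-fold lower, while 16 stayed within 2-fold, beside 17.3% higher and 22.5% lower of all 307 such microRNAs. miR-495-3p had 193, 1005 and 286 CPM, and miR-370-3p and miR-379-5p were likewise highest in pool 2, while miR-376a-3p had 199, 10.4 and 18.1 CPM and miR-369-3p 546, 95.2 and 415 CPM. Pool 2 was the highest of the 3 for 17 of the 35 members, beside 43.0% of all. Members that were lower in pool 2 held a median of 40.5% G and C bases (over 8 with a sequence). The median was 50.0% for those that were higher (over 9) and also 50.0% for those within 2-fold (over 15). Across microRNAs the log2 ratio of pool 2 to the others rose with the share of G and C (members: Pearson r = 0.43, Spearman rho = 0.36, n = 32; all: r = 0.42, rho = 0.40, n = 268). All points of this description come from the same 3 libraries.

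**Figure D3:**
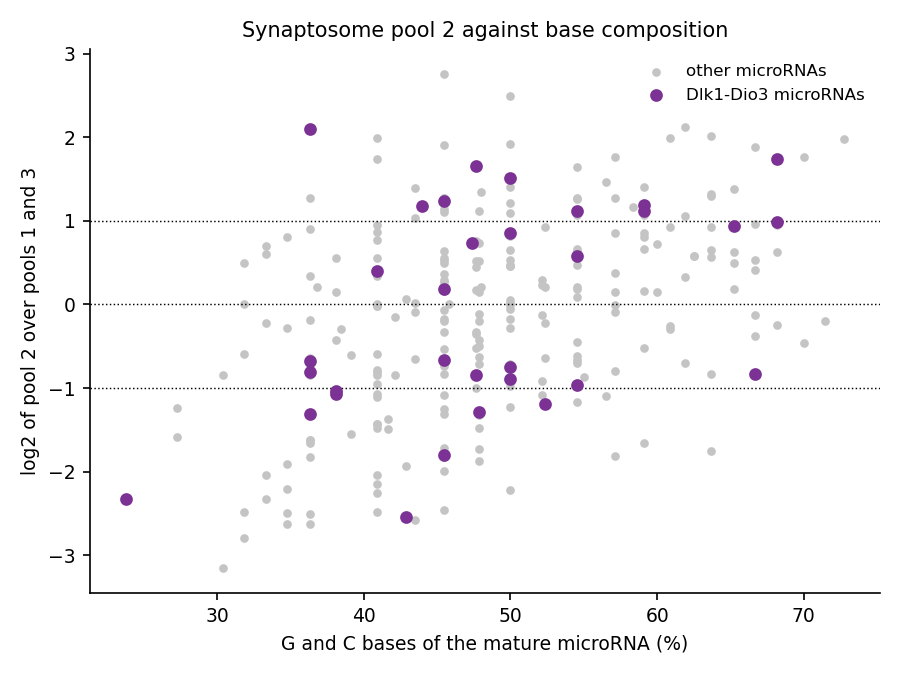
Log2 ratio of pool 2 to the geometric mean of pools 1 and 3 for each microRNA with at least 10 CPM in every synaptosome pool, against the share of G and C bases in its mature sequence, with dotted lines at no difference and at 2-fold. Members (purple) lie within the range of the other microRNAs (grey), and the member poorest in G and C, miR-369-3p at 23.8%, is among the lowest in pool 2.

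The 2 arms of a hairpin come from 1 precursor, and both were members for 7 hairpins. The 3p arm of Mir127 exceeded its 5p arm 36.8-, 75.0- and 65.8-fold in pools 1, 2 and 3, and that of Mir136 exceeded its partner 1.23-, 1.82- and 2.22-fold. For Mir434 the ratio of 3p to 5p was 3.61, 0.298 and 2.43. The 5p arm of Mir434 was thus the more abundant arm in pool 2 only. Mir485 (2.08, 0.409 and 2.00) and Mir369 (2.27, 0.357 and 1.80) turned over in the same way, while Mir382 kept its 5p arm ahead (0.599, 0.111 and 0.421) and Mir409 its 3p arm (5.13, 24.5 and 4.20). Ratios moved over 4-fold between pools for 5 of the 7 hairpins, beside 40.3% of 67 hairpins in all, and the leading arm changed for 3 of 7, beside 22.4%.

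**Figure D4:**
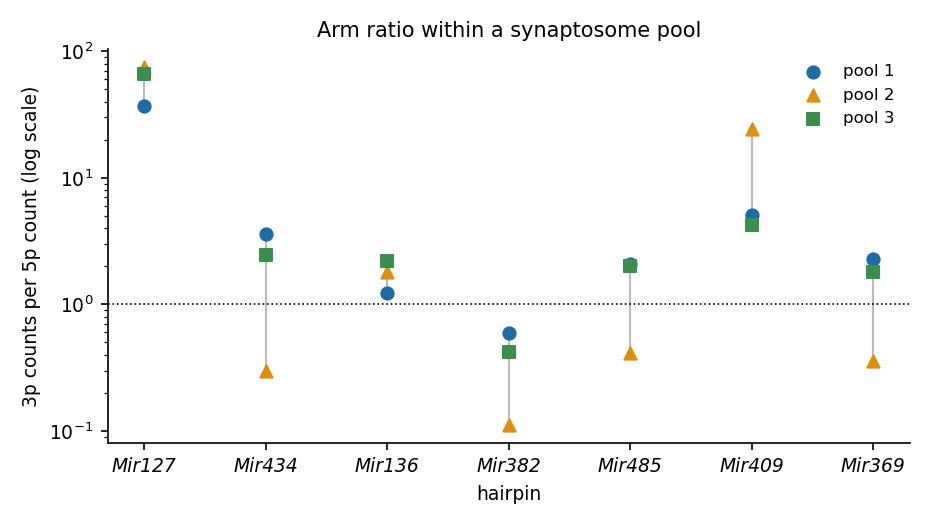
Counts of the 3p arm per count of the 5p arm (log axis) for 7 hairpins in the order of the locus, in synaptosome pools 1, 2 and 3, with the dotted line at equal arms. Mir127 lies at 36.8 to 75.0, while for Mir434, Mir485 and Mir369 pool 2 lies below 1 and the other pools above.

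The chambers gave few microRNA counts, 475 to 2104 a library and 6797 in all, so only large differences could be seen. Members took 95 of these counts, or 1.40% (exact Clopper-Pearson 95% interval 1.13% to 1.71%, which covers counting error only), and 1.14% to 1.93% in the 6 libraries. All of these shares lay below those of the 3 synaptosome pools. Shares also depend on the most abundant names, and the top 10 took 62.4% to 76.3% of a chamber library and 56.7% to 61.4% of a pool. The leading name was miR-706 in chamber C42, with 31.3% of counts, and miR-128-3p in pool 3, with 16.4%. The part of these names in the difference was not tested. With miR-127-3p left out, members took 1.05% to 1.93% in the chambers and 2.80% to 4.27% in synaptosomes. In the chambers 24 of the 37 members had a count, beside 12.4% of all names. A mean of 1000 CPM was reached by 5 (3.08% of all names) and 1000 CPM in every chamber by 0 (0.859%). At this depth the cutoff rests on a few counts and is not comparable with its use in synaptosomes. miR-127-5p reached it on 4 counts (1033 CPM) and miR-127-3p, also on 4 counts, did not (966 CPM).

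Several of the most abundant members in synaptosomes were scarce in the chambers. miR-127-3p had 0, 1, 0, 0, 1 and 2 counts in the 6 libraries, 4 in all, where its mean synaptosomal share would have given 302, a ratio of 75.6-fold (exact Poisson 95% interval 29.5 to 277). Its lowest and highest pools would have given 174 and 478. The folds, intervals and bounds here take the synaptosomal mean as fixed, so they cover counting error in the chambers only. miR-381-3p, miR-434-5p and miR-411-5p had 0 counts, where 29.4, 19.6 and 9.11 would have been given. A count of 0 allows up to 3 counts over the 6 libraries, or 441 CPM, at the one-sided 95% limit (the two-sided interval used for the other members reaches 3.69), and against 3 counts their synaptosomal means were at least 9.81-fold, 6.54-fold and 3.04-fold higher. miR-434-3p had 2 counts for 27.7 (13.8-fold, 3.83 to 114), miR-379-5p 3 for 21.5 (7.18-fold, 2.46 to 34.8) and miR-541-5p 2 for 19.4 (9.72-fold, 2.69 to 80.3). In these 7 members the whole counting interval lay below the count given by the lowest pool, beside 4.69% of 1067 microRNAs. The interval of a 0 count already reaches 3.69, so only names abundant enough in synaptosomes could lie below. The 7 and the share of all names therefore also reflect synaptosomal levels. The 5p arm of Mir127 kept pace, with 4 counts for 4.99.

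Other members were as frequent or more frequent in the chambers. miR-382-5p had 13 counts for 12, spread over 5 of 6 libraries. miR-323-3p had 15 counts for 3.80 but from 3 libraries only, miR-329-3p 5 for 0.713 from 4 libraries, and miR-667-3p 9 for 0.340 from 5 libraries. In these 3 members the interval lay above the count given by the highest pool, beside 12.3% of microRNAs, and in the remaining 27 it did neither.

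**Figure D5:**
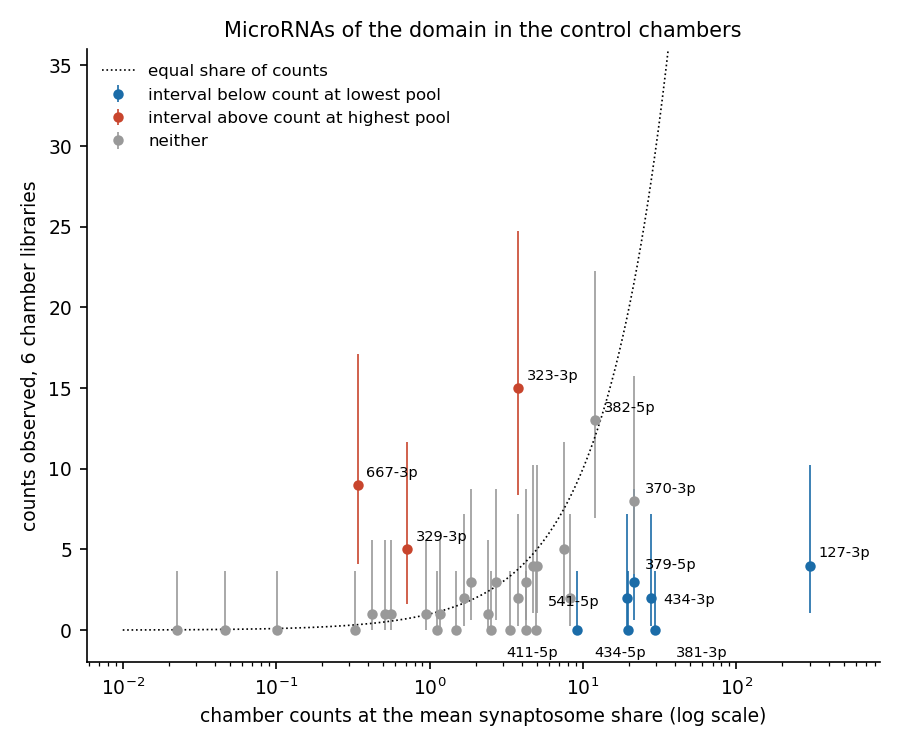
Counts of each microRNA over the 6 control chamber libraries with exact 95% Poisson intervals, against the count that its mean share in synaptosomes would give (log axis), with the dotted line at equal shares. miR-127-3p lies far to the right with 4 counts, and miR-323-3p, miR-329-3p and miR-667-3p lie above the line.

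The test across all microRNAs depended on the scaling. edgeR with TMM called 29 of the 37 members higher in synaptosomes and 0 lower, beside 29.0% and 5.28% of the 776 names tested. A name was tested if it had at least 10 counts over all libraries, which synaptosome counts alone could supply. Members could thus enter through the group in which they were called higher, so these counts of calls are not independent support. With library totals alone edgeR called 8 higher and 2 lower, beside 6.70% and 9.79%, since TMM set synaptosomes 14.5-fold higher. The 8 were called under both scalings and were miR-127-3p, miR-381-3p, miR-434-3p, miR-434-5p, miR-411-5p, miR-543-3p, miR-541-5p and miR-379-5p. Of these, miR-381-3p, miR-434-5p, miR-411-5p and miR-543-3p had 0 counts in the chambers. For miR-543-3p, with 0 counts for 4.96, the counting interval did not lie below the count given by the lowest pool. For miR-127-3p the log2 difference was 10.24 (SE 0.98, adjusted p = 4.23e-11) with TMM and 6.36 (SE 0.85, adjusted p = 3.47e-07) with library totals. The 2 lower ones were miR-667-3p (−4.54, adjusted p = 8.21e-05) and miR-329-3p (−2.57, adjusted p = 0.0432), for which TMM gave −0.73 and 1.19 with no call. The direction of miR-329-3p and of 6 other members thus turned with the scaling. For members with 0 counts in the chambers a fitted difference sets no bound and is not given.

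Some snoRNAs that the annotation places in the domain were seen in the small RNA libraries of both preparations. Of 23 snoRNA models 9 had a matching name, and 4 of these 9 had no count in either. GM23736 had a mean of 4688 CPM of snoRNA counts in synaptosomes (192 counts) and 140 CPM in chambers (31 counts), and GM26922 had 452 CPM (12 counts) and 97.7 CPM (21 counts).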

How the data were processed

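Total and small RNA libraries of 3 synaptosome pools, 8 control and 3 KCl libraries of total RNA from chambers, each pooled by the authors from a pair of samples, and 6 control libraries of small RNA from chambers were analysed, grouped by their labels. Per the labels and the study's methods, the authors used bcl2fastq 2.20.2, cutadapt 1.11.0, STAR 2.5.2b on mm10, featureCounts 1.5.1, and for microRNAs mirdeep2 with Bowtie 1.1.2 against miRBase. The deposited raw counts were used without change. The deposited CPM, which the authors scaled to each table's total and partly named TPM, equalled those recomputed from the counts in the total RNA and lncRNA tables, and CPM of small RNAs were computed here. A further 12 per-sample columns, among them CPM of snoRNAs, were not used. Counts were tested with edgeR 4.0.16 (quasi-likelihood, TMM, filterByExpr for genes, at least 10 counts for microRNAs) in R 4.3.3. A call needed an adjusted p (Benjamini-Hochberg over all features tested) of at most 0.05 and a log2 difference beyond 1. DESeq2 1.42.0, other scalings and filters, the lncRNA tables, a block and each library left out were alternatives. The fits were tested on simulated data. Ratios were compared with exact permutation tests (scipy 1.17.1). Nothing says that the chambers of a group came from separate cultures, so p-values measure the spread between these libraries, which may be technical. The named genes were every member and the other genes of the interval between Dlk1 and Dio3. Members and lists were chosen with earlier results of these data known. Sequences came from RefSeq GRCm38.p6 and gene models from GENCODE vM21.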

Additional observations from a re-analysis of the deposited data

Results flagged for a closer look

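The ratio of Meg3 to Rian counts in control chamber sc3 was 45.5, where the next of the 8 controls had 11.7. The gap took 0.806 of the whole range, and it was the 1 such distance among 8 values tested, of which chance gives about 1 in 20. sc3 was also the deepest control library, with 48281227 counts, and had the lowest Rian and Mirg CPM of the controls.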

How the results depend on the processing

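Against control chambers, the Meg3 to Rian ratio of synaptosomes kept its direction in the lncRNA tables and with each library left out, and 8 microRNAs were called higher under both scalings. Among these 8, miR-381-3p, miR-434-5p, miR-411-5p and miR-543-3p had 0 counts in the chambers. The depth of the chamber small RNA libraries and the number of synaptosome pools limit the comparisons. In the comparison of KCl with control, edgeR called 1 gene. The count was 415 with DESeq2, 56 with no filter, 4 with 1 factor from residuals, 422 without sc3 and KCL4, and 0 without the title term, in the lncRNA table and with library totals. Leaving out each library gave 0 to 1098 genes, the highest without sc3. Shared title numbers are not known to pair chambers, and with the number as a replicate block 0 genes were called and Rian stood at 0.99. In the comparison of synaptosomes with control chambers 2008 genes were called, against 9771 with DESeq2, 27940 with library totals and 8008 without sc3 and Ctrl4 (chosen after seeing the data, as were library totals in total RNA and the variants of the ratios), and 583 to 9538 with each library left out, the highest without sc3. For microRNAs 266 names were called, 128 with library totals and 29 with filterByExpr, of which 29, 8 and 1 were members that rose. The filterByExpr setting left only 31 names to test, 1 of them a member. Requiring 1000 CPM in every library took members from 11 to 7 in synaptosomes and from 5 to 0 in chambers. In the chambers this cutoff rests on a few counts. Signs turned in the lncRNA tables for Meg3 (−0.91) and Mirg (−0.22) under KCl and Rian in synaptosomes (0.43). They turned with library totals for miR-323-3p (−1.54), miR-134-5p (−0.55), miR-369-5p (−0.0097), miR-329-3p (−2.57), miR-376b-3p (−0.52), miR-376a-3p (−0.68) and miR-376c-3p (−0.92), and with DESeq2 for miR-667-3p (1.45). The Meg3 to Rian difference ranged from −5.28 to −4.57 in synaptosomes and from −1.01 to −0.49 under KCl with each library left out. The causes of these shifts were not tested.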
